A study of Mus musculus with 9 samples.

Results

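The clustered protocadherins are cell-surface adhesion proteins encoded by 3 neighboring gene clusters, Pcdh-alpha, Pcdh-beta and Pcdh-gamma. They were taken by gene symbol, which picked 58 of the 22337 genes listed for the mouse retina: 14 of the alpha cluster, 22 of the beta cluster and 22 of the gamma cluster. The symbol Pcdha11 is carried by 2 of these entries, so 57 symbols stand for 58 genes. Retinas were compared at postnatal day 28 (P28) in 3 groups of 3 libraries. The WT group was C57 BL/6J mice without any injection. The NS group was rd10 mice, which carry a mutation in the rod phosphodiesterase gene Pde6b and lose their rods, given normal saline. The EV group was rd10 mice given extracellular vesicles from human umbilical cord mesenchymal stem cells (MSC-EVs, Exo in the labels). In both rd10 groups each eye was injected at P14 and again at P21 with a volume of 1 μl. They were littermates according to the study's methods, whereas the WT mice were bought separately and had no injection, so genotype, injection and origin cannot be told apart in a comparison with WT.

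Each clustered protocadherin gene has its own promoter, and a single neuron switches on only a few of the alpha, beta and gamma genes, chosen largely at random. The proteins bind the same protein on a facing membrane, which gives each neuron a surface identity by which its branches recognize and avoid one another. In the retina, the gamma genes are known for the self-avoidance of starburst amacrine cell dendrites and for the survival of interneurons and ganglion cells. The C-type genes (Pcdhac1, Pcdhac2, Pcdhgc3, Pcdhgc4 and Pcdhgc5) stand apart from the others, since many neurons express them steadily and not at random. Pcdhgc4 is the gamma gene most closely tied to neuronal survival.

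In the GENCODE M21 annotation (GRCm38) the alpha genes lay at chr18:36930184-37187661, the beta genes at chr18:37264938-37524479 and the gamma genes at chr18:37661793-37841873, all on the plus strand. Each alpha gene joins its own large first exon to the same 3 constant exons of 59, 89 and 2712 bases. The gamma genes do likewise with constant exons of 59, 89 and 1971 bases, of which the last is annotated with this exact end in 17 of 22 genes. The exonic bases that a member shared with other members were 38% to 54.9% in the alpha cluster and 27.8% to 66.8% in the gamma cluster. In the beta cluster they were 0% except for Pcdhb21 and Pcdhb22, whose ends overlapped by 455 bases. A read in a constant exon belongs to no single alpha or gamma gene, so it had to be divided among them by estimation. The deposited counts showed this division as decimals, in 92.9% to 100% of the alpha genes and 95.5% to 100% of the gamma genes of a library but in only 9.09% to 18.2% of the beta genes. Beta values therefore rest almost wholly on each gene's own reads, whereas a single alpha or gamma value includes estimated shares. The sum of counts over a cluster does not depend on how reads were divided within it. A sum of FPKM can depend on it, through the length used for each gene. The 3 annotated read-through genes that span the clusters (Gm42416, Gm37013 and Gm37388) were listed at 0 in each of the 9 libraries. Another annotated gene on that strand, Gm38182, also overlaps exons of the gamma genes, and its counts were not examined. Antisense genes overlapped exons of 4 alpha, 1 beta and 8 gamma genes, and the strand of the libraries was not stated, so their reads may include antisense RNA.

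Total counts ran from 19491717 to 62532343 per library, with EV replicate 3 the deepest, and the members took 19379 to 78300 of them (0.0892% to 0.13%). Levels are given as TMM-normalized counts scaled to library size (CPM) for comparisons of one gene between groups, and as FPKM, which corrects for length, for comparisons between genes. A change was called where the edgeR quasi-likelihood test across all genes gave a Benjamini-Hochberg adjusted p under 0.05. Nothing in the sources says that replicates came from separate animals, so the p-values measure the spread between these samples. Counts of 4 Y-linked genes were 4379 and 4421 in EV replicates 1 and 2 and 7 to 23 in the other 7 libraries, so the sexes were unevenly spread over the groups. Of the rod markers, 14 of 14 were lower in NS than in WT and 14 of 14 in EV than in WT. Fewer cells of a type and less RNA per cell cannot be told apart in such bulk samples.

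Every member had reads, and their levels differed widely. Pcdhgc3 was among the highest in all groups, at 23.6, 20.9 and 19.6 FPKM in the WT libraries, 32.5, 24.8 and 28.2 FPKM in NS and 33.3, 31.4 and 30.8 FPKM in EV. Among the alpha genes Pcdhac2 led, with 6.44 ± 0.652 FPKM in WT (SD, n = 3). It was followed by Pcdha4 at 3.34 ± 0.209 FPKM and Pcdha7 at 2.12 ± 0.446 FPKM. Pcdhac1, the other C-type gene of this cluster, was low at 0.993 ± 0.0651 FPKM. Among the beta genes Pcdhb9 led with 8.22 ± 0.82 FPKM, ahead of Pcdhb20 at 6 ± 0.413 FPKM and Pcdhb17 at 5.68 ± 0.135 FPKM, and these last 2 overlapped. The lowest member was Pcdhb1, at 0.13 ± 0.0529 FPKM in WT, and it had too few reads to be tested in NS against WT. Pcdhgc5 reached 1.44 ± 0.306 FPKM in WT, well under the other C-type genes of the gamma cluster.

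**Figure D1:**
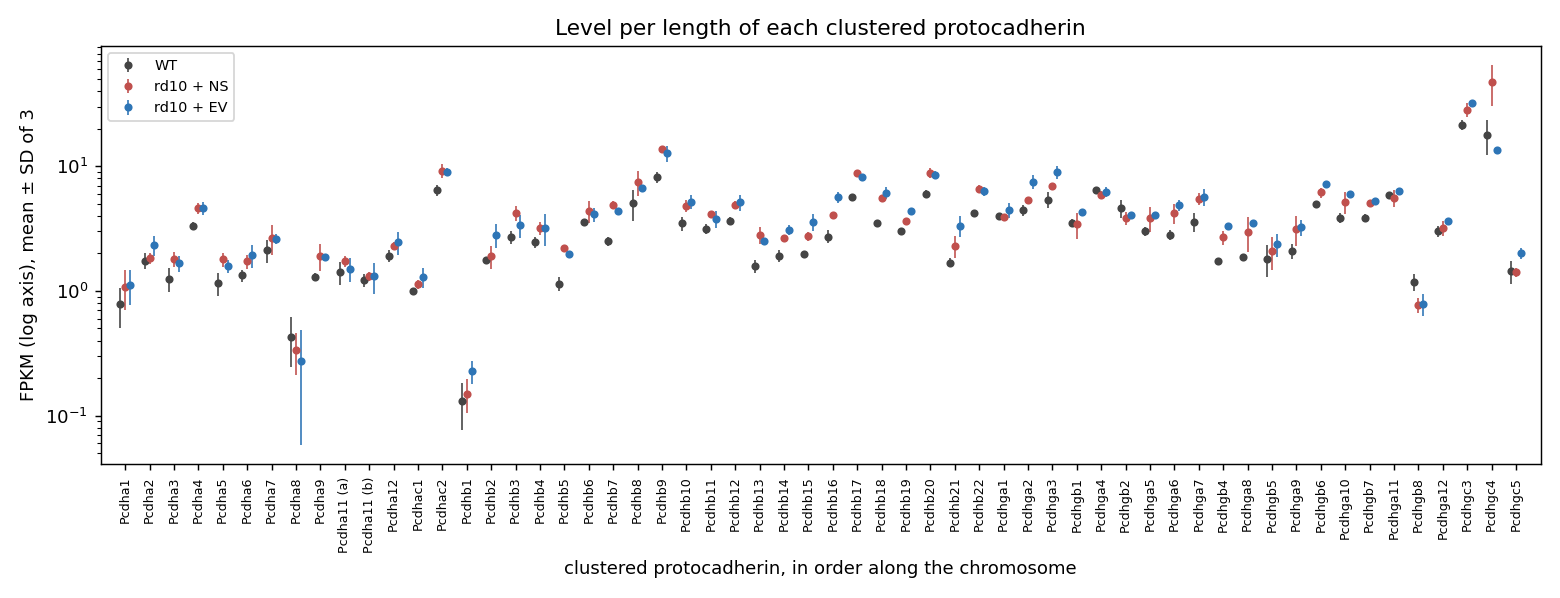
Level of each of the 58 clustered protocadherins, in chromosomal order, as FPKM on a log axis. Points are the mean and bars the SD of 3 libraries of WT (gray), NS-treated rd10 (red) and EV-treated rd10 (blue) retinas. Pcdhgc3 and Pcdhgc4 stand highest, and Pcdhb1 and Pcdha8 lowest, and the NS mean of Pcdhgc4, 47.8 FPKM, is the highest value shown.

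To ask how the degenerating retina differs from the normal one, NS was compared with WT, first by the sum over each cluster. The beta sum was 302, 313 and 300 CPM in the WT libraries and 401, 384 and 407 CPM in the NS libraries. No NS library came within the WT range. The rise was 0.38 on the log2 scale (SE 0.05, edgeR adjusted p = 5.64e-05), and 0.14 without a call when libraries were scaled to inner retina neuron markers instead of all genes (edgeR adjusted p = 0.119). The alpha sum was 159, 145 and 141 CPM in WT and 187, 161 and 171 CPM in NS, and the gamma sum was 544, 527 and 529 CPM in WT and 660, 606 and 615 CPM in NS. Both differed less than the beta sum did, and again the libraries did not overlap. The alpha sum was higher by 0.22 (SE 0.07, edgeR adjusted p = 0.0137) and the gamma sum by 0.23 (SE 0.06, edgeR adjusted p = 0.00393), but both turned to -0.01 with that scaling. The gamma sum was also taken without Pcdhgc4, a choice made after the values were seen. Leaving out the largest rise lowers the difference in any case. The other 21 gamma genes differed by 0.10 (SE 0.08, edgeR adjusted p = 0.329). In FPKM, however, their sum was 95.3, 88.5 and 88.8 in WT and 124, 99.4 and 106 in NS, without overlap. Unlike the whole gamma sum in counts, it depends on how reads were divided between Pcdhgc4 and the others.

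**Figure D2:**
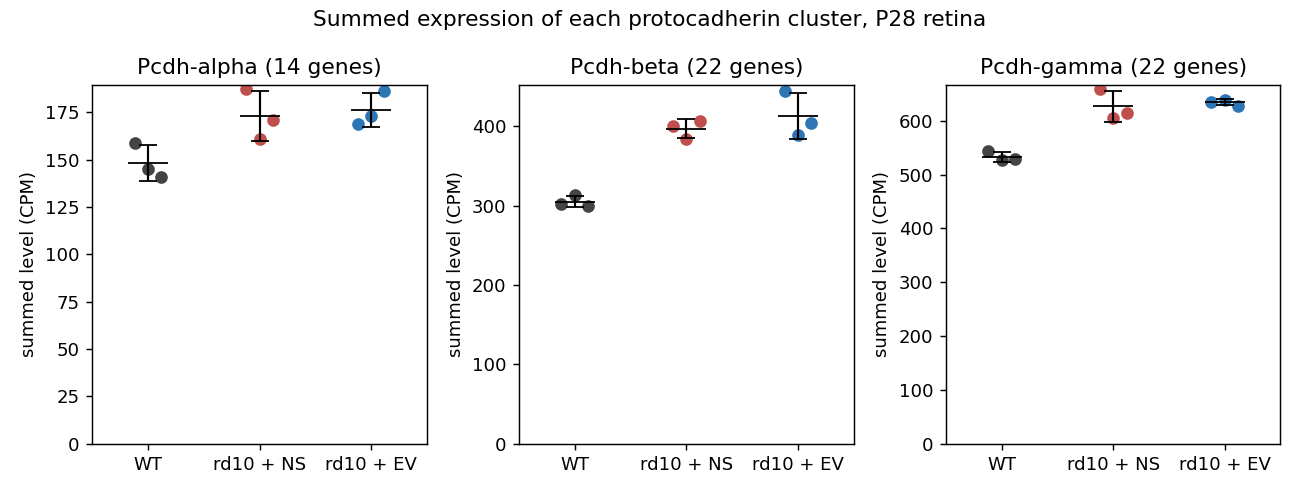
Summed CPM over the genes of each cluster, with 1 point per library and the mean ± SD of 3 libraries in black, axes starting at 0. All rd10 libraries lie above all WT libraries in each panel, while NS and EV overlap; scaled to inner retina neuron markers, the log2 differences of NS from WT become -0.01 for alpha, 0.14 for beta and -0.01 for gamma, none called, and those of EV become 0.09, 0.28 and 0.09, with only beta called.

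Of the 57 members tested in NS against WT, 19 rose, 3 fell and 35 did not pass the test. The share called, 38.6%, was below that of all genes tested, of which 61.3% were called. By direction, 33.3% of the members rose against 31.2% of all genes, and 5.26% fell against 30.1%. The median log2 fold change was 0.25 over the members and 0.01 over all genes. No member was called at a change of 2-fold or more, as 12.7% of all genes were (9.16% higher and 3.56% lower). Every NS library lay above every WT library for 21 members (33.7% of all genes) and below it for 2 (33.2%). The split depended on the scaling: limma on log2(FPKM + 1), where the median over all genes moved to 0.14, called 33 higher and 1 lower (57.6% of all genes), and scaling to 48 inner retina neuron markers, where it moved to -0.23, called 5 higher and 7 lower (62% of all genes).

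The beta genes gave most of the rises, 11 of 21 tested (52.4%, against 31.2% of all genes). None fell (30.1% of all genes), and all 21 estimates were above 0 (0.05 to 0.79). Pcdhb7 changed most, from 10.2, 9.49 and 8.76 CPM in WT to 16.3, 17.6 and 15.6 CPM in NS, with no overlap between groups. Its log2 fold change was 0.79 (SE 0.1, edgeR adjusted p = 3.62e-05). Pcdhb5, a low member, went from 4.35, 4.88 and 3.85 CPM to 7.2, 7.3 and 7.87 CPM, a change of 0.77 (SE 0.15, edgeR adjusted p = 0.000645). The most abundant beta gene, Pcdhb9, held 24.2, 29.1 and 28.1 CPM in WT and 41.4, 38 and 40.6 CPM in NS, again without overlap. It rose by 0.56 (SE 0.08, edgeR adjusted p = 0.000108). Pcdhb17 rose by 0.45 (SE 0.07) and Pcdhb20 by 0.38 (SE 0.09), so high and low genes of this cluster were among those that rose. With inner retina neuron scaling Pcdhb17 had 0.21 (edgeR adjusted p = 0.0833) and Pcdhb20 0.15 (edgeR adjusted p = 0.281), neither called, while Pcdhb5, Pcdhb7 and Pcdhb9 were still called. Pcdhb16, which recurs below, was 16.2, 16.7 and 13.4 CPM in WT and 20.9, 19.6 and 20.8 CPM in NS (log2 fold change 0.4, SE 0.1, edgeR adjusted p = 0.00342), with 0.17 and no call under that scaling (edgeR adjusted p = 0.193).

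In the alpha cluster 3 of 14 genes rose in NS against WT (21.4%, against 31.2% of all genes), and none fell (30.1% of all genes). Pcdhac2 held 45.7, 39.6 and 37.7 CPM in WT and 59.2, 45.4 and 50.5 CPM in NS, so the lowest NS library lay just under the highest WT library. Its log2 fold change of 0.34 (SE 0.11, edgeR adjusted p = 0.0179) missed the threshold when WT replicate 2, WT replicate 3 or NS replicate 1 was left out (0.22 to 0.31, edgeR adjusted p = 0.0541 to 0.0608). Pcdha4 rose by 0.28 (SE 0.09, edgeR adjusted p = 0.015), a call lost without WT replicate 2 or NS replicate 3. With inner retina neuron scaling neither Pcdhac2 (0.10, edgeR adjusted p = 0.409) nor Pcdha4 (0.04, edgeR adjusted p = 0.775) was called. The other was Pcdha5, named here after its value was seen (0.46, SE 0.17, edgeR adjusted p = 0.0307). Pcdhac1 did not differ, with 5.82 ± 0.395 CPM in WT and 5.85 ± 0.457 CPM in NS (SD, n = 3; log2 fold change 0, SE 0.14). Pcdha7 had a log2 fold change of 0.15 (SE 0.2), and its libraries overlapped.

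In the gamma cluster 5 of 22 genes were higher in NS than in WT (22.7%, against 31.2% of all genes). Lower were 3 (13.6%, against 30.1% of all genes), and 14 were not called. The members that fell were all in this cluster. Pcdhgb8, which is annotated as a polymorphic pseudogene, was 5.2, 5.64 and 7.01 CPM in WT and 3.96, 3.33 and 2.98 CPM in NS, a change of -0.79 (SE 0.18, edgeR adjusted p = 0.00231). Pcdhga4 was 31.9, 33.4 and 33 CPM in WT and 28.4, 24.3 and 24.1 CPM in NS (log2 fold change -0.36, SE 0.08, edgeR adjusted p = 0.00303). Neither pair of groups overlapped. Pcdhgb2 changed by -0.43 (SE 0.12, edgeR adjusted p = 0.00883), without a call when WT replicate 2 was left out (-0.34, edgeR adjusted p = 0.0544), and on FPKM values neither Pcdhga4 nor Pcdhgb2 was called (limma adjusted p = 0.309 and 0.164 on log2(FPKM + 1)). Pcdhgb4 held 8.26, 8.95 and 8.96 CPM in WT and 13.1, 12.7 and 10.2 CPM in NS, a rise of 0.46 (SE 0.12, edgeR adjusted p = 0.00647) that was 0.23 and not called with inner retina neuron scaling (edgeR adjusted p = 0.19). Pcdhgc3 had a log2 fold change of 0.23 (SE 0.11, edgeR adjusted p = 0.0919), with 147, 110 and 123 CPM in NS against 120, 105 and 99.1 CPM in WT, and -0.01 when scaled to inner retina neuron markers. It was called by DESeq2 (adjusted p = 0.0372), with the replicate block (edgeR adjusted p = 0.00785), by limma on log2(FPKM + 1) (0.40, adjusted p = 0.00678) and without WT replicate 1 or NS replicate 2. Along the chromosome, the 10 successive genes from Pcdhga5 to Pcdhgb7 all had estimates above 0 (0.04 to 0.5), whereas 7 of the 9 other A and B genes were below 0. This stretch was picked after the values were seen and carries no test.

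**Figure D3:**
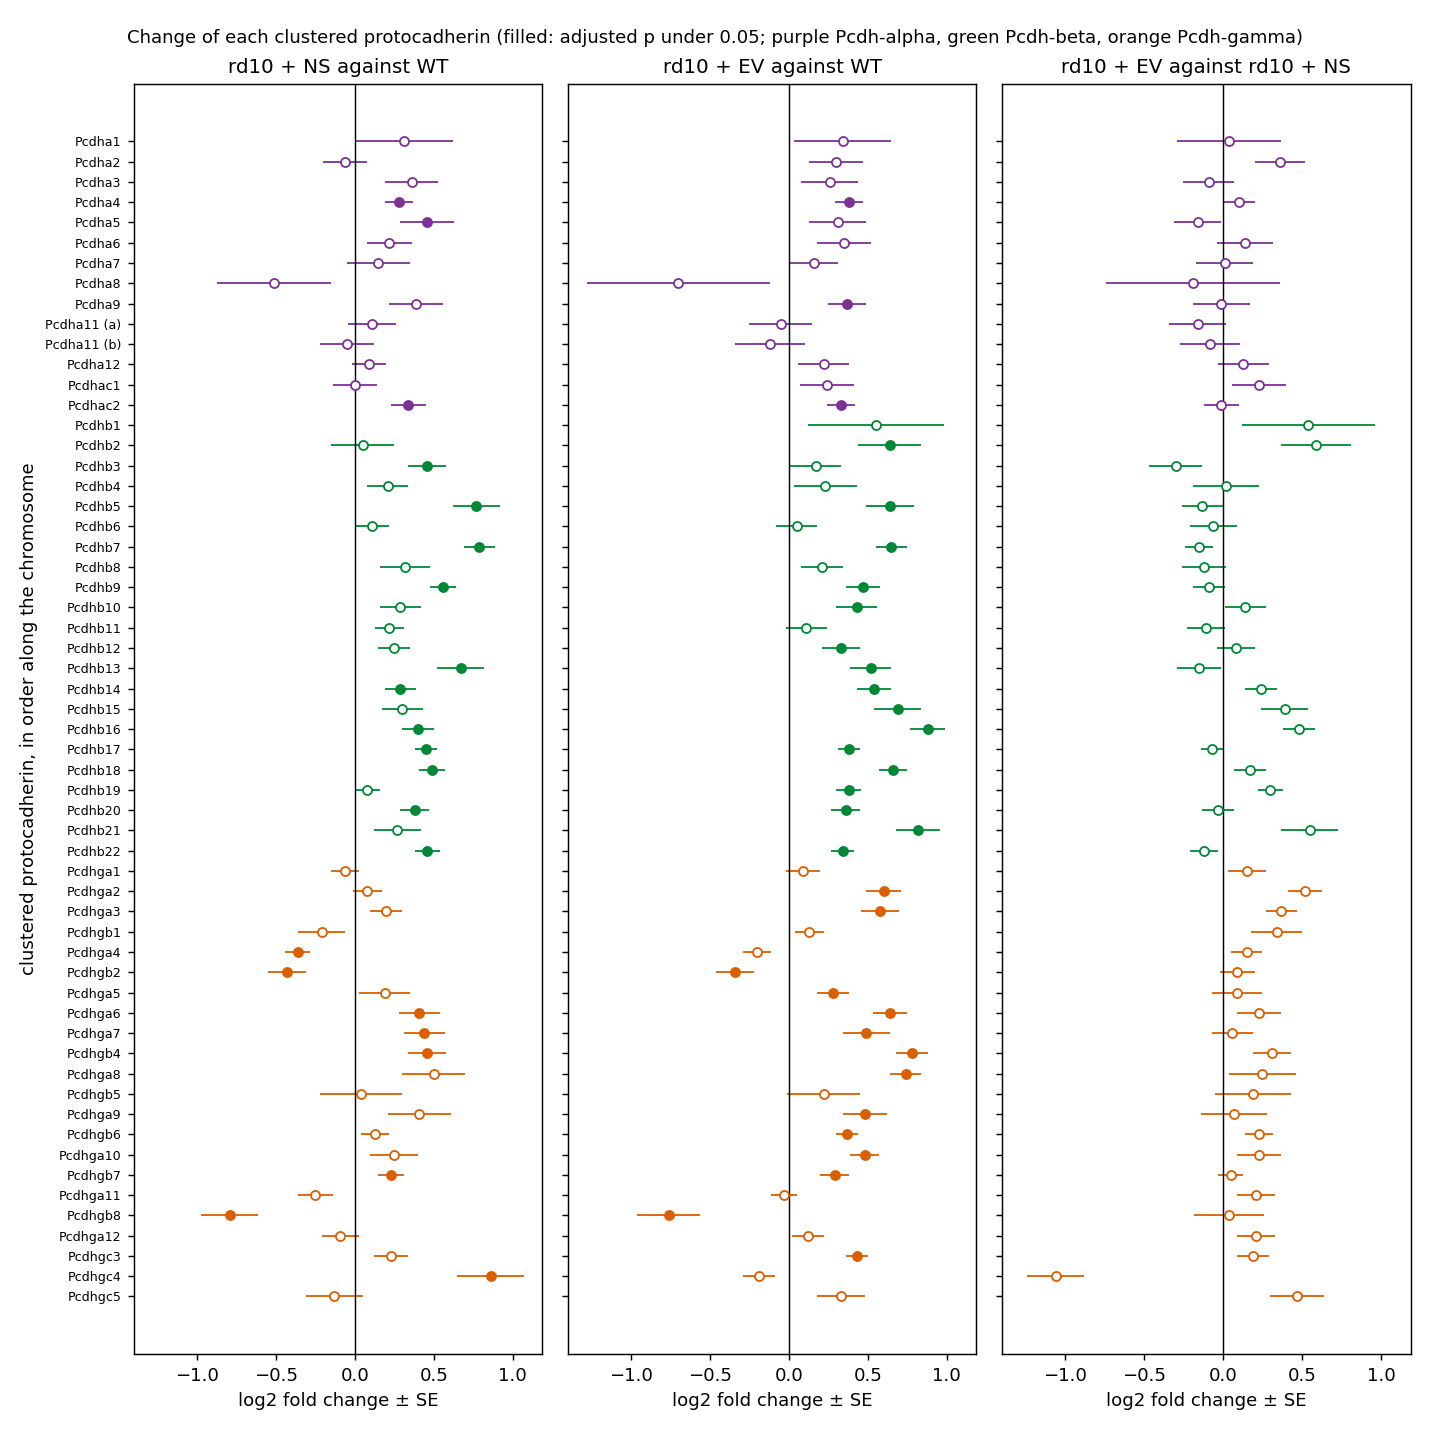
Log2 fold change ± SE of each member in the 3 comparisons, in chromosomal order, filled where the edgeR adjusted p was under 0.05. NS against WT has 22 filled points and EV against WT 33, mostly above 0 and with the green beta genes all above 0; EV against NS has none, and Pcdhgc4 lies at -1.06.

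The EV group was set against the same WT libraries, so the values below share their controls with those above. The beta sum was 445, 389 and 404 CPM in EV, higher than in WT by 0.44 on the log2 scale (SE 0.06, edgeR adjusted p = 0.000182). The alpha sum was 169, 173 and 186 CPM and the gamma sum 636, 639 and 628 CPM, both higher by 0.26 (edgeR adjusted p = 0.00595 and 0.00143). With scaling to inner retina neuron markers both were 0.09 and neither was called, while the beta difference was 0.28 and still called. Without Pcdhgc4, left out after the values were seen, the gamma sum was still higher than in WT, by 0.32 (SE 0.05, edgeR adjusted p = 0.000687).

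Of 58 members tested in EV against WT, 31 rose, 2 fell and 25 did not pass the test. The share called was 56.9%, against 55.5% of all genes tested; 53.4% rose, against 28.3% of all genes, and 3.45% fell, against 27.2%. None was called at 2-fold or more (12.2% of all genes, 9% higher and 3.2% lower). The libraries did not overlap for 32 members higher in EV (31.9% of all genes) and 3 lower (33.3%). With Y-linked expression as a covariate 22 were called, 21 of them higher (40.5% of all genes), and with scaling to inner retina neuron markers 18 were called, 14 higher and 4 lower (57% of all genes), with the median over all genes at -0.17. The beta cluster had 16 of 22 genes higher (72.7%) and none lower. The gamma cluster had 12 higher (54.5%) and 2 lower (9.09%), and the alpha cluster 3 higher (21.4%), beside the shares of all genes given above. The largest rise was that of Pcdhb16, with 31.5, 27.4 and 26.4 CPM in EV (log2 fold change 0.88, SE 0.11, edgeR adjusted p = 0.000104). Pcdhb21 followed, with 18.3, 14.2 and 13 CPM in EV against 7.76, 9.09 and 8.96 CPM in WT (0.82, SE 0.14, edgeR adjusted p = 0.000981). Part of its 3' end lies under Pcdhb22, whose own change was smaller (0.34, SE 0.07). Pcdhgb4 held 15.4, 15 and 14.2 CPM (0.78, SE 0.1, edgeR adjusted p = 0.000157). Each EV library of these genes lay above each WT library. Pcdhgb8 was again low, at 2.8, 4.23 and 3.48 CPM (log2 fold change -0.76, SE 0.2, edgeR adjusted p = 0.00909). Pcdhgb2 was the other fall (-0.34, SE 0.12, edgeR adjusted p = 0.0308), and its call was lost with that covariate and without WT replicate 2, WT replicate 3 or EV replicate 1 (edgeR adjusted p = 0.0984 to 0.139), and by limma on log2(FPKM + 1) (-0.14, adjusted p = 0.303). Pcdhga4, called in NS, had -0.2 (SE 0.09, edgeR adjusted p = 0.069) and was called without EV replicate 2 (-0.27, edgeR adjusted p = 0.0121) and with inner retina neuron scaling (-0.36, edgeR adjusted p = 0.0154).

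Among the C-type genes in EV against WT, Pcdhgc3 rose by 0.43 (SE 0.07, edgeR adjusted p = 0.000744) to 151, 142 and 140 CPM. Pcdhac2 rose by 0.33 (SE 0.09, edgeR adjusted p = 0.0107), a call lost without WT replicate 2 or 3 and with inner retina neuron scaling (0.16, edgeR adjusted p = 0.129). Pcdhgc4 did not pass the test, with 64.5 ± 3.6 CPM in EV and 74.1 ± 10.7 CPM in WT (SD, n = 3; log2 fold change -0.19, SE 0.1, edgeR adjusted p = 0.137). Pcdhgc5 had 0.33 (SE 0.15, edgeR adjusted p = 0.0802), called without WT replicate 1 (0.46, edgeR adjusted p = 0.0388), and Pcdhac1 0.24 (SE 0.17, edgeR adjusted p = 0.246). Pcdhga3, the A-type gamma gene with the highest mean FPKM over the 9 libraries, was 38.2, 46.2 and 37.9 CPM in EV and 31.6, 27.1 and 23.5 CPM in WT, without overlap (0.58, SE 0.12, edgeR adjusted p = 0.00297).

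To ask how vesicle-treated rd10 retinas differed from saline-treated ones, EV was compared with NS. High Y-linked counts were seen only in EV replicates 1 and 2, so treatment and sex are partly mixed in this comparison. By edgeR, none of the 58 members passed the test, where 1.16% of all genes tested did (0.914% higher and 0.251% lower). With a 2-fold minimum none was called either (0.061% of all genes, 0.0542% higher and 0.00677% lower). None was called with Y-linked expression as a covariate, a fit for which the share of all genes is not given. At an unadjusted p under 0.05 there were 13 of 58 members, against 20.2% of all genes, DESeq2 called 4, where it called 6.41% of all genes, and limma on log2(FPKM + 1) called 0. The libraries did not overlap for 10 members higher in EV (12.8% of all genes) and 3 lower (13.5%). The cluster sums differed little: 0.03 for alpha (SE 0.07, edgeR adjusted p = 0.852), 0.06 for beta (SE 0.07, edgeR adjusted p = 0.672) and 0.02 for gamma (SE 0.06, edgeR adjusted p = 0.873). In CPM the NS and EV libraries overlapped in all 3 sums. The gamma difference was -0.18 on log2(FPKM + 1). Its sums were 152, 160 and 160 FPKM in NS and 140, 140 and 137 FPKM in EV, without overlap. A sum of FPKM, unlike a sum of counts, depends on the length used for each gene, which varied for Pcdhgc4 as given below. Pcdhgc4 alone had 47.8 ± 17.2 FPKM in NS and 13.4 ± 0.626 FPKM in EV (SD, n = 3). The other 21 gamma genes summed to 124, 99.4 and 106 FPKM in NS and 127, 127 and 123 FPKM in EV, with overlap. The nearest to the threshold was Pcdhb16, with 20.9, 19.6 and 20.8 CPM in NS and the EV values given above (log2 fold change 0.48, SE 0.1, edgeR adjusted p = 0.0502). It was called by DESeq2, with no filter on low counts or at least 10 counts in every library, with all 9 libraries in 1 fit, with the replicate block (edgeR adjusted p = 0.0406) and without EV replicate 2. Pcdhga2 had 0.52 (SE 0.11, edgeR adjusted p = 0.0544) and Pcdhb21 0.55 (SE 0.18, edgeR adjusted p = 0.137). The C-type gene Pcdhgc5 reached 0.47 (SE 0.17, edgeR adjusted p = 0.17). Pcdhga3 had 0.37 (SE 0.1, edgeR adjusted p = 0.0882, called by DESeq2) and Pcdhgb4 0.31 (SE 0.12, edgeR adjusted p = 0.191). For each of these genes every EV library lay above every NS library. Pcdhb7, Pcdhb9, Pcdhb17 and Pcdhb20 had estimates from -0.15 to -0.03, none called. For Pcdhb7 every EV library lay below every NS library. Pcdhgb8 stood at 0.04 (SE 0.22).

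Pcdhgc4 was the exception within the gamma cluster. It held 61.8, 81.8 and 78.7 CPM in WT, 99.1, 160 and 146 CPM in NS and 64.1, 61.1 and 68.3 CPM in EV. The NS libraries lay above all the others, and NS replicate 1 was the lowest of them. In NS against WT its log2 fold change was the largest rise of any member, 0.86 (SE 0.21, edgeR adjusted p = 0.0158). That call was lost without WT replicate 3, NS replicate 2 or NS replicate 3 (0.72 to 0.91, edgeR adjusted p = 0.0524 to 0.0633) and with inner retina neuron scaling (0.63, edgeR adjusted p = 0.0707). In EV against NS it was -1.06 (SE 0.18, edgeR adjusted p = 0.052), the only gamma estimate below 0. It was called by DESeq2 (adjusted p = 9.45e-10), with all 9 libraries in 1 fit (edgeR adjusted p = 0.0162), with the replicate block (-1.03, edgeR adjusted p = 0.0429) and without NS replicate 1 (-1.24, edgeR adjusted p = 0.00138).

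The other 21 gamma genes each had an estimate above 0 in EV against NS, none of them called. Their sum, chosen after the values were seen, was 561, 446 and 468 CPM in NS and 571, 578 and 560 CPM in EV. The difference was 0.22 (SE 0.08, edgeR adjusted p = 0.193). In NS replicates 2 and 3, where Pcdhgc4 was highest, the other gamma genes were lowest among the rd10 libraries. Pcdhgc4 held 26.4% and 23.8% of all gamma counts in those libraries, 15% in NS replicate 1, 11.4% to 15.5% in WT and 9.56% to 10.9% in EV. The gamma sum of counts, which does not depend on how reads were divided among its genes, hardly differed between NS and EV (627 ± 29.2 and 634 ± 5.72 CPM, SD, n = 3).

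Per length the Pcdhgc4 difference was wider. Its FPKM was 11.36, 21.25 and 21.05 in WT, 28.35, 60.94 and 54.08 in NS and 13.23, 12.82 and 14.05 in EV. Since FPKM divides a count by transcript length and depth, the 2 deposited values give the length that was used. For the 36 members with a single annotated transcript this implied length differed from the annotated length by at most 2.6% in any library. For Pcdhgc4 it was 5022, 3585 and 3439 bases in WT, 3623, 2745 and 2847 bases in NS and 5026, 4938 and 4998 bases in EV. The EV libraries and WT replicate 1 thus sat near the length of its long transcript (5024 bases), and the other 5 libraries lay between that and its short one (2272 bases). Of the short transcript, 93.3% is the constant exons shared by the gamma genes, and only its 153-base first exon is outside them, whereas the long transcript has a 2905-base first exon of its own. A further annotated transcript is a single exon of 3100 bases with nothing shared, so an intermediate length does not say which transcript was used. The libraries with implied lengths of 2745 to 3623 bases were those with 78.7 CPM or more of Pcdhgc4, and those at 4938 to 5026 bases had 68.3 CPM or less. The part of read division in the Pcdhgc4 difference was not tested, as counts per exon were not analysed here. The ratio between the longest and the shortest implied length over the libraries was 1.83 for Pcdhgc4 and exceeded 1.2 in 4 other entries, Pcdhgc5, Pcdhb2, Pcdhb8 and one of the Pcdha11 pair.

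**Figure D4:**
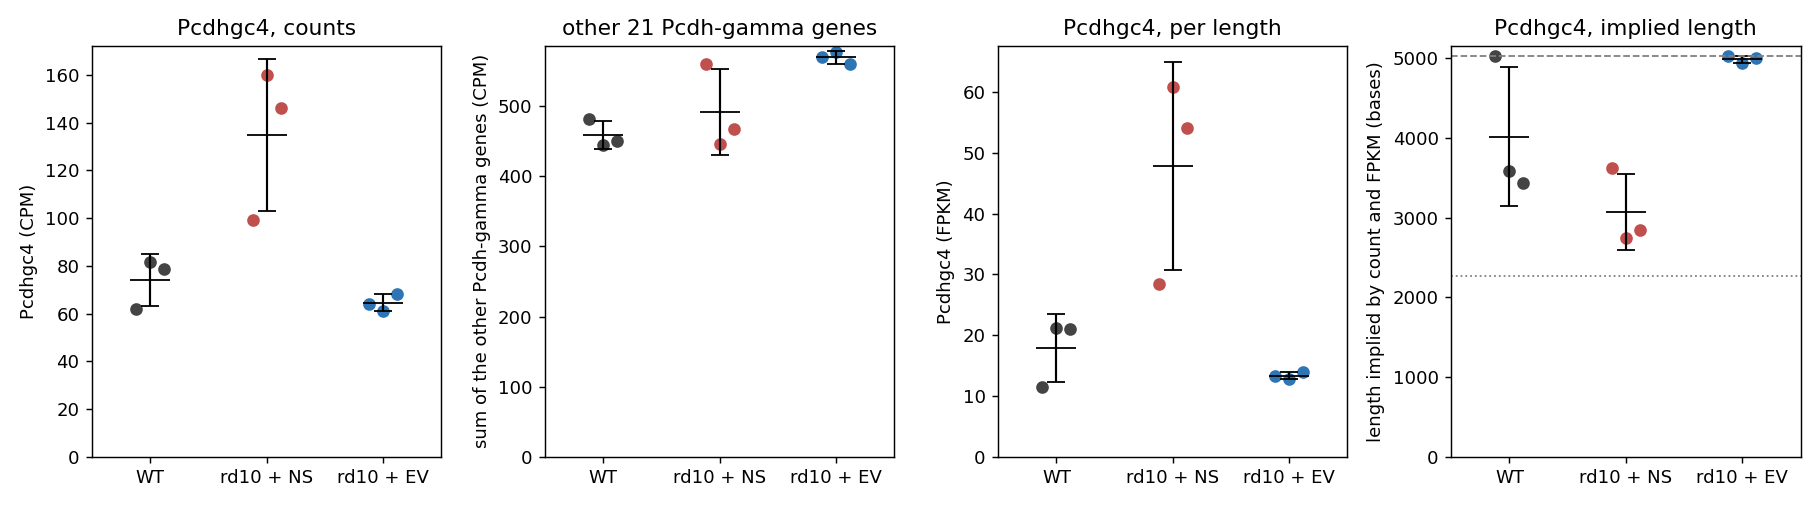
From left to right, Pcdhgc4 in CPM, the summed CPM of the other 21 gamma genes, Pcdhgc4 in FPKM, and the transcript length in bases implied by its count and FPKM, with 1 point per library and mean ± SD of 3. The dashed and dotted lines mark the long (5024 bases) and short (2272 bases) annotated transcripts; NS libraries are highest in both panels of Pcdhgc4 level, and their implied lengths of 2745 to 3623 bases overlap those of WT.

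Because the rd10 retina has lost rods, each sum was also set against 48 markers of bipolar, amacrine, horizontal and ganglion cells. Which retinal cells express the members was not measured in these bulk samples. The markers' own mean log2 CPM was 6.05 to 6.14 in WT, 6.23 to 6.42 in NS and 6.17 to 6.34 in EV, 0.24 higher in NS than in WT (two-sided exact permutation test, p = 0.1, the smallest that 3 against 3 libraries allow). Relative to them, the sum over all members differed by 0.04 between NS and WT (exact p = 0.4), by 0.11 between EV and NS (exact p = 0.2) and by 0.15 between EV and WT (exact p = 0.1). The beta sum relative to the markers was 2.09, 2.17 and 2.18 in WT, 2.26, 2.36 and 2.25 in NS and 2.53, 2.43 and 2.31 in EV. The groups did not overlap between WT and either rd10 group, and the differences were 0.14 for NS and 0.28 for EV (exact p = 0.1 each), of which the edgeR fit with this scaling called only the second. 

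**Figure D5:**
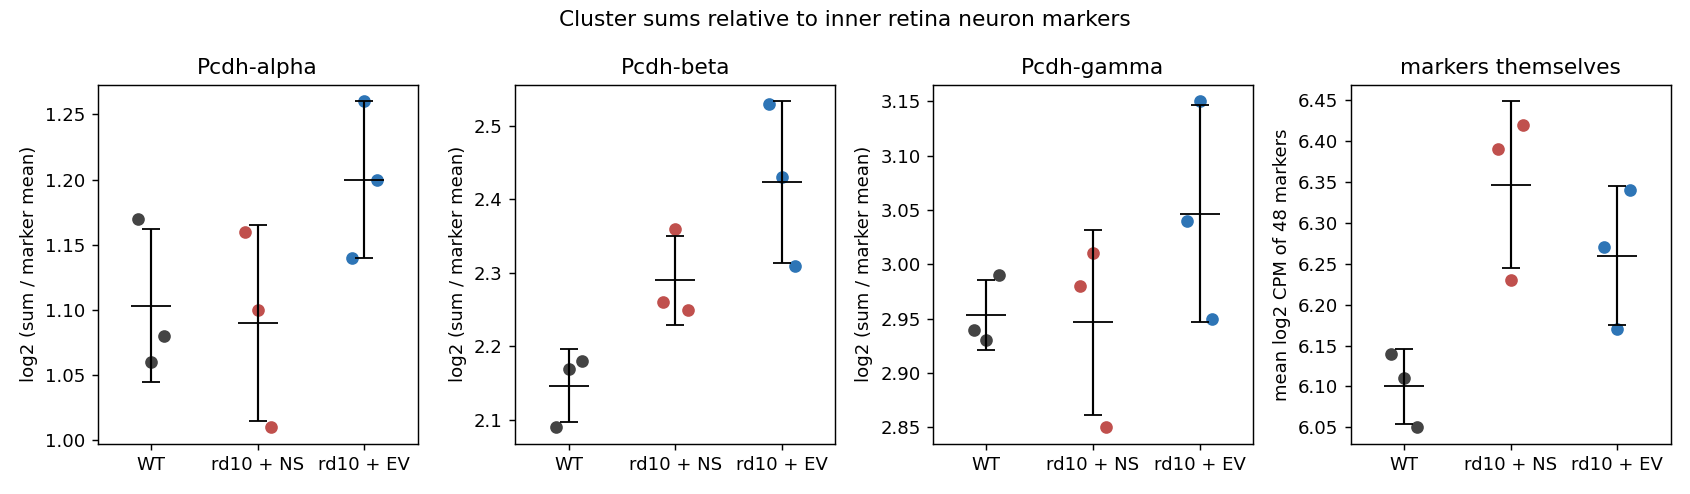
Each cluster sum relative to 48 inner retina neuron markers (log2 of the sum minus the mean log2 CPM of the markers), and the marker mean itself, with 1 point per library and mean ± SD of 3. The beta values of NS and EV lie above those of WT (2.25 to 2.53 against 2.09 to 2.18), while alpha and gamma values of NS and WT overlap.

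Markers of several cell types moved with these results. Of the inner neuron lists, 7 of 14 bipolar markers were higher in NS than in WT and 2 lower, with 10 of 16 amacrine, 6 of 7 horizontal and 6 of 12 ganglion cell markers higher and none lower. Their sums ran from 2310 to 2390 CPM in WT and 2430 to 2750 CPM in NS for bipolar cells, led in WT by Prkca. For amacrine cells, led by Gad1, they ran from 2050 to 2100 CPM in WT and 2320 to 2570 CPM in NS. Müller glia markers summed to 5200 to 5550 CPM in WT, 7480 to 8920 CPM in NS and 6770 to 6990 CPM in EV. Their most abundant gene, Glul, did not rise with the sum, at 2730 CPM in WT, 2680 CPM in NS and 1900 CPM in EV. Against WT, 8 of 10 were higher and none lower in NS, and 7 were higher and 1 lower in EV. Of the microglia and macrophage markers, 11 of 11 were higher in both rd10 groups than in WT. Astrocyte and gliosis markers, led by Gfap, summed to 96.3 to 111 CPM in WT, 511 to 894 CPM in NS and 630 to 1080 CPM in EV. Endothelial and pericyte markers, led by Kdr, summed to 418 to 446 CPM in WT, 677 to 736 CPM in NS and 661 to 771 CPM in EV. Cone markers differed less, at 1740 to 1980 CPM in WT, 1700 to 1760 CPM in NS and 1450 to 1660 CPM in EV. Pigment epithelium markers (56 to 102 CPM in WT, 57.7 to 239 CPM in NS, 72.6 to 211 CPM in EV) and lens markers (33 to 142, 36.8 to 50.8 and 12.2 to 130 CPM) varied between libraries of each group. The part of these cells in the protocadherin differences was not tested.

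Genes that control or act with the clustered protocadherins moved in their own ways. The first list held 25 regulators of promoter choice, which include the insulator protein gene Ctcf, cohesin subunits and enzymes that write or remove DNA methylation. In NS against WT, where 31.2% of all genes rose and 30.1% fell, 3 rose and 15 fell. Limma on log2(FPKM + 1) called 10 of the 25. Tet3, which encodes an enzyme that oxidizes methylated cytosine, was 182 CPM in NS against 371 CPM in WT (log2 fold change -1.03, SE 0.08, edgeR adjusted p = 8.97e-07). Zfp143, which encodes a promoter-binding partner of CTCF, changed by -0.72 (SE 0.1). Uhrf1, needed for the upkeep of DNA methylation, rose by 1.92 (SE 0.42) from a low level of 0.318 CPM. In EV against WT, where 28.3% of all genes rose and 27.2% fell, 2 regulators rose and 5 fell (11 called with inner retina neuron scaling), Tet3 (-0.84, SE 0.08) and Zfp143 (-0.71, SE 0.07) among them, and Tet1 rose by 0.70 (SE 0.11). Nipbl, the cohesin loader gene, was the only one of the list called in EV against NS, at 163 against 116 CPM (0.49, SE 0.08, edgeR adjusted p = 0.0333). No regulator was called in EV against NS by limma on log2(FPKM + 1), with Y-linked expression as a covariate, or without NS replicate 2, NS replicate 3 or EV replicate 1, whereas DESeq2 called 4, the replicate block 3, and both the fit of all 9 libraries and the fit without EV replicate 2 called 5.

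The second list held 26 partners and effectors of the proteins, such as focal adhesion kinases and the WAVE complex that drives actin branching. In NS against WT 18 rose and 3 fell, and in EV against WT 15 rose and 2 fell, beside the shares of all genes given above. With inner retina neuron scaling 12 were called in NS against WT, 7 higher and 5 lower. Ptk2b, which encodes a kinase inhibited by protocadherin tails, rose from 4.09 CPM in WT to 9.93 CPM in NS (1.28, SE 0.21, edgeR adjusted p = 0.000247) and 11.1 CPM in EV (1.45, SE 0.2). Ptk2b is also expressed by myeloid cells, whose markers rose as given above, and their part in its change was not tested. Nlgn1, a synaptic adhesion gene, rose by 0.67 (SE 0.11) in NS and 0.74 (SE 0.14) in EV. Cyfip1, of the WAVE complex, rose by 0.56 (SE 0.07) in NS, and the kinase gene Prkce rose by 0.64 (SE 0.08) in EV. None of this list was called in EV against NS by edgeR on those 6 libraries, while DESeq2 and the edgeR fit of all 9 libraries each called 1.

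Of 11 tested protocadherins encoded outside the clusters, 7 rose and 1 fell in each comparison with WT, beside the same shares of all genes. With inner retina neuron scaling 4 were called in NS against WT. Pcdh7 rose by 0.77 (SE 0.09) in NS, and Pcdh9 by 0.67 (SE 0.11) in NS and 0.95 (SE 0.14) in EV. Pcdh17 rose by 0.72 (SE 0.1) and Pcdh11x by 0.71 (SE 0.16) in EV. Pcdh15, which photoreceptors also use, fell by 0.65 on the log2 scale in NS (SE 0.08), from 300 to 192 CPM. Of 33 other recognition genes, 24 rose and 2 fell in NS and 23 rose and 2 fell in EV. Cdh13 rose by 1.47 (SE 0.14) and 1.41 (SE 0.17), and the self-avoidance gene Dscaml1 had -1.03 (SE 0.07) and -1.21 (SE 0.2). Cntn5 rose by 1.00 (SE 0.2) in EV. Megf10, which spaces starburst amacrine cells but is also made by Müller glia, rose by 1.22 (SE 0.07) in NS. In EV against NS it was the only called gene of this list (-0.40, SE 0.08, edgeR adjusted p = 0.049), and none was called without NS replicate 2, NS replicate 3, EV replicate 1 or EV replicate 3, with DESeq2 size factors, with inner retina neuron scaling or by limma. The list had 4 calls without EV replicate 2, 3 with DESeq2, 3 with all 9 libraries in 1 fit and 2 with the replicate block or no filter.

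Genes around the clusters were described alongside. Of the protein-coding neighbors, 5 on each side and 5 within the span, 11 could be tested, and in NS against WT 1 rose and 5 fell, where 61.3% of all genes were called. Taf7, a general transcription factor gene that lies between the beta and gamma clusters, was 25.8 CPM in WT and 18.6 CPM in NS (-0.47, SE 0.08, edgeR adjusted p = 0.000205). Slc25a2, beside it, was too low to be tested. Upstream of the alpha cluster, the histidyl-tRNA synthetase genes Hars (-0.32, SE 0.06) and Hars2 (-0.27, SE 0.08) and the gene Wdr55 (-0.97, SE 0.15) fell, while Zmat2 had -0.08 (SE 0.06) and Dnd1 0.04 (SE 0.38). Downstream of the gamma cluster, Diaph1, which regulates actin, had -0.19 (SE 0.07, edgeR adjusted p = 0.0371). There Hdac3, Rell2 and Fchsd1 were not called. Arap3, known from endothelium, rose by 1.14 (SE 0.2), and 9 of 9 endothelial and pericyte markers were also higher. The part of endothelial cells in its rise was not tested. By edgeR none of the 11 was called in EV against NS (-0.2 to 0.51).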

How the data were processed

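Retina mRNA was enriched with oligo(dT), copied with random primers and sequenced by the authors. The deposited table holds expected counts and FPKM per gene. Per the labels' processing notes, the tools included HISAT2, StringTie, Bowtie2, RSEM and fastp. Their roles, the genome build and the annotation were not given in the sources used here. Deposited FPKM is scaled per library total and estimated transcript length, and reads shared between genes were divided by estimation.

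Expected counts were rounded to whole numbers and tested with edgeR 4.0.16 (filterByExpr, TMM, robust quasi-likelihood fit, 2 groups at a time, all genes, Benjamini-Hochberg adjusted p under 0.05). The design had assumed plain counts. Cluster sums entered the same table in place of their members. The standard error is the absolute log2 fold change divided by the square root of F. Alternatives were DESeq2 1.42.0, limma 3.58.1 on log2(FPKM + 1) and log2(FPKM + 0.1), other size factors and filters, 1 fit of all 9 libraries, a replicate block, a Y-linked covariate, scaling to inner retina neuron markers and leaving out each library. Positions and exons came from GENCODE M21 on GRCm38, where all 58 members matched by identifier. The edgeR test was also run on simulated counts with the same dispersion for every gene. The permutation test was run on a made-up case with a known answer. These checks do not copy the spread between the libraries here.

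Named genes were the C-type genes, the 3 members of each cluster with the highest mean FPKM, the 3 called members with the largest rise and fall in each comparison among those whose libraries did not overlap, and the 3 called genes of each context list with the largest absolute change. Pcdha5, Pcdhb22, Pcdhb1, Pcdha8 and Pcdhga2 were named after their values were seen. The members and gene lists were chosen with earlier results of these data known. The main tests did not pair samples by replicate number, which only the replicate block did. No sequence is shown, and summed levels of the rod and the microglia markers are not reported here.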

Additional observations from a re-analysis of the deposited data

How the results depend on the processing

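The settings below moved the members' counts or the cluster sums, and most of those that moved a named gene or a gene list stand beside it in the report. Of the named genes not given there, Pcdha4, Pcdhb9 and Pcdhb20 lost their calls in EV against WT with inner neuron scaling and with the Y-linked covariate, Pcdhb17 with the first and Pcdhb5 with the second. In NS against WT the 22 called members became 0 with a 2-fold minimum, 34 with limma on log2(FPKM + 1) or log2(FPKM + 0.1), 12 with inner retina neuron scaling and 16 to 28 when 1 library was left out. The alpha, beta and gamma sums became -0.01, 0.14 (edgeR adjusted p = 0.119) and -0.01 with that scaling, and Pcdhgc3 -0.01. The alpha sum ranged from 0.16 to 0.28 with 1 library left out and lost its call without WT replicate 2 (0.21, edgeR adjusted p = 0.0504) or WT replicate 3 (0.19, edgeR adjusted p = 0.0549). The gamma sum without Pcdhgc4, chosen after seeing the data, was 0.10. In EV against WT the 33 called members became 0 with a 2-fold minimum, 18 with inner neuron scaling, 22 with the Y-linked covariate and 24 to 35 with 1 library left out. With inner neuron scaling its alpha and gamma sums were 0.09 each (edgeR adjusted p = 0.253 and 0.276). In EV against NS the 0 called members became 2 without a filter, 1 with at least 10 counts in every library, 4 with DESeq2, 4 with all 9 libraries in 1 fit, 3 with the replicate block, 1 with inner neuron scaling and 0 to 2 with 1 library left out (1 without NS replicate 1, 2 without EV replicate 2). The alpha and gamma sums became 0 and -0.01 with upper-quartile factors. The gamma sum was -0.18 with limma on both FPKM scales, and with 1 library left out the alpha sum ran from -0.02 to 0.09 and the gamma sum from 0 to 0.06. The causes were not tested. Same-numbered NS and EV libraries correlated at 0.097, 0.165 and 0.256 in their deviations from group means, each best with its own number, and pairs with WT at -0.053 to 0.094. With the replicate block, 28 members were called in NS against WT and 34 in EV against WT. Limma on log2(FPKM + 0.1) called 57.9% of all genes in NS against WT, and inner neuron scaling 1.19% in EV against NS. Such shares are not given for the replicate block, the filters, the fit of all 9 libraries or the fits without 1 library. Member counts under those settings therefore cannot be set against all genes. Low members had larger errors: in NS against WT the median SE was 0.15 below and 0.10 above the median level of 13.7 CPM.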
